A study of Mus musculus with 9 samples.

Results

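Extracellular matrix proteins and proteoglycans are described here across the 3 treatments of a mouse oviductal epithelial cell line. They are 57 genes, taken by gene symbol from the 23332 gene rows of each sample, and comprise 5 small leucine-rich proteoglycans, 3 large or basement membrane proteoglycans, 8 cell surface proteoglycans, 11 genes for fibronectin, elastic fibres and crosslinking enzymes, 5 fibrillar collagens, 10 basement membrane and other collagens, 10 laminins and nidogens, and 5 matricellular proteins. A row of their own was found for 56 of them. *Lamb2* stood in a row joined with *Usp19*, so its values cannot be separated from those of that gene.

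FVB MOE cells are a monoclonal line of secretory epithelium from the FVB mouse oviduct, the counterpart of the human fallopian tube, so all samples represent 1 clone grown on plastic. The cells were kept for 48 h in charcoal stripped, phenol red free medium and then treated for 24 h with DMSO solvent (0.1%), with 1 nM 17-betaestradiol (E2), or with 100 nM 4-hydroxytamoxifen (4OHT), a selective estrogen receptor modulator. Their routine growth medium had also contained 17-betaestradiol. Each treatment had 3 samples, numbered as replicates 1 to 3 in the labels. The labels do not say whether replicates were separate cultures, so p-values measure only the spread between these samples, which may be technical.

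Epithelial cells rest on a basement membrane, a sheet in which laminin and type IV collagen networks are joined by nidogens and by heparan sulfate proteoglycans such as perlecan (*Hspg2*) and agrin (*Agrn*). Fibrillar collagens, fibronectin and elastic fibres lie beneath it, syndecans and glypicans carry heparan sulfate on the cell surface, and matricellular proteins such as SPARC, tenascin C and thrombospondin 1 modulate adhesion without building fibres. Decorin (*Dcn*), a small leucine-rich proteoglycan, binds collagen fibrils and growth factors.

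The values are FPKM, fragments scaled to transcript length and to the mapped fragments of the sample, so levels can be compared between genes per length. FPKM summed to between 522517 and 588640 per sample, and the read counts behind single values are not in the files. Among oviduct secretory markers, *Pax8* lay between 105 and 149.6 FPKM and *Krt7*, *Krt8* and *Krt18* were expressed, but *Ovgp1* did not exceed 2.61 and the epithelial adhesion genes *Epcam* and *Cdh1* did not exceed 0.138 and 0.422. The 4 ciliated cell rows that were found (*Dnah5* had none) had means of at least 1. *Foxj1* lay between 8.95 and 15.9, while *Ccdc39* did not exceed 1.71 and *Rsph1* did not exceed 3.86. None of 6 fibroblast genes reached a mean of 1 and their summed FPKM was 0.108 to 0.173. Smooth muscle *Acta2* lay between 932 and 1724 and *Cnn1* between 10.0 and 36.5, with *Myh11* and *Des* near 0. In each replicate *Acta2* was higher in E2 (1290, 1301 and 1724) than in DMSO (932, 1042 and 1414). *Cnn1* was lower (10.0, 13.2 and 31.5 against 14.4, 20.7 and 36.5). No endothelial gene reached a mean of 1, though *Kdr* was higher in E2 in each replicate (1.21, 1.01 and 1.28 against 0.640, 0.445 and 0.711). Among blood genes only *Cd68* reached it, with a mean of 3.69. The summed secretory markers were 1260 to 1391 in DMSO, 2154 to 2319 in E2 and 1341 to 1487 in 4OHT, a sum carried by the keratins (*Krt7* was 439, 222 and 267 in replicates 1, 2 and 3 of DMSO and 927, 748 and 775 in E2). Within each replicate *Ovgp1* was lower in E2 (1.49, 2.01 and 1.44) than in DMSO (1.99, 2.11 and 2.61), as was *Foxj1* (8.95, 11.7 and 13.0 against 13.6, 15.3 and 15.9). *Pax8* was higher in E2 in each replicate (149.6, 128 and 121 against 142, 107 and 107). The ciliated cell rows did not move together. *Ccdc39* was lower in E2 in each replicate, but *Rsph1* was higher (3.65, 3.86 and 3.52 against 3.097, 3.21 and 2.98). *Tubb4b* was mixed (418, 424 and 395 against 405, 529.6 and 439). The part of these markers' cells in the differences below was not tested, and in bulk RNA fewer cells of a type and less RNA per cell cannot be told apart.

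Values of exactly 0 occurred in genes that were otherwise well expressed. Across all rows, 266 genes with a nonzero median of at least 5 FPKM had such zeros, 80 to 109 of them in each sample, and 4 of the 57 genes (*Fn1*, *Hspg2*, *Col4a5* and *Lama5*) held 13 of them. These zeros were treated as missing. Genes with at least 1 FPKM in at least 3 samples were tested, which 38 of the 57 were. Of the 19 others, 13 stayed under 0.2 FPKM in every sample, with a highest value of 0.112.

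The matrix transcripts of these cells spanned from barely measurable to among the most abundant (plot of levels by sample). Fibronectin (*Fn1*) had the highest mean, 978 FPKM over the 4 samples with a value. *Sparc*, a collagen-binding matricellular protein, followed with a mean of 408 and ranged from 353 to 462, and the adhesion-modulating *Thbs1* had a mean of 287. *Col18a1*, whose product carries endostatin at its end, had a mean of 199, and the fibulin gene *Fbln2*, whose product binds elastic fibres and basement membranes, one of 176. With *Gpc4* (118) and *Col5a2* (100.2), these 7 genes had means of at least 100 FPKM. Another 20 genes lay between 10 and 100, and 11 tested genes lay below 10.

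**Figure D1:**
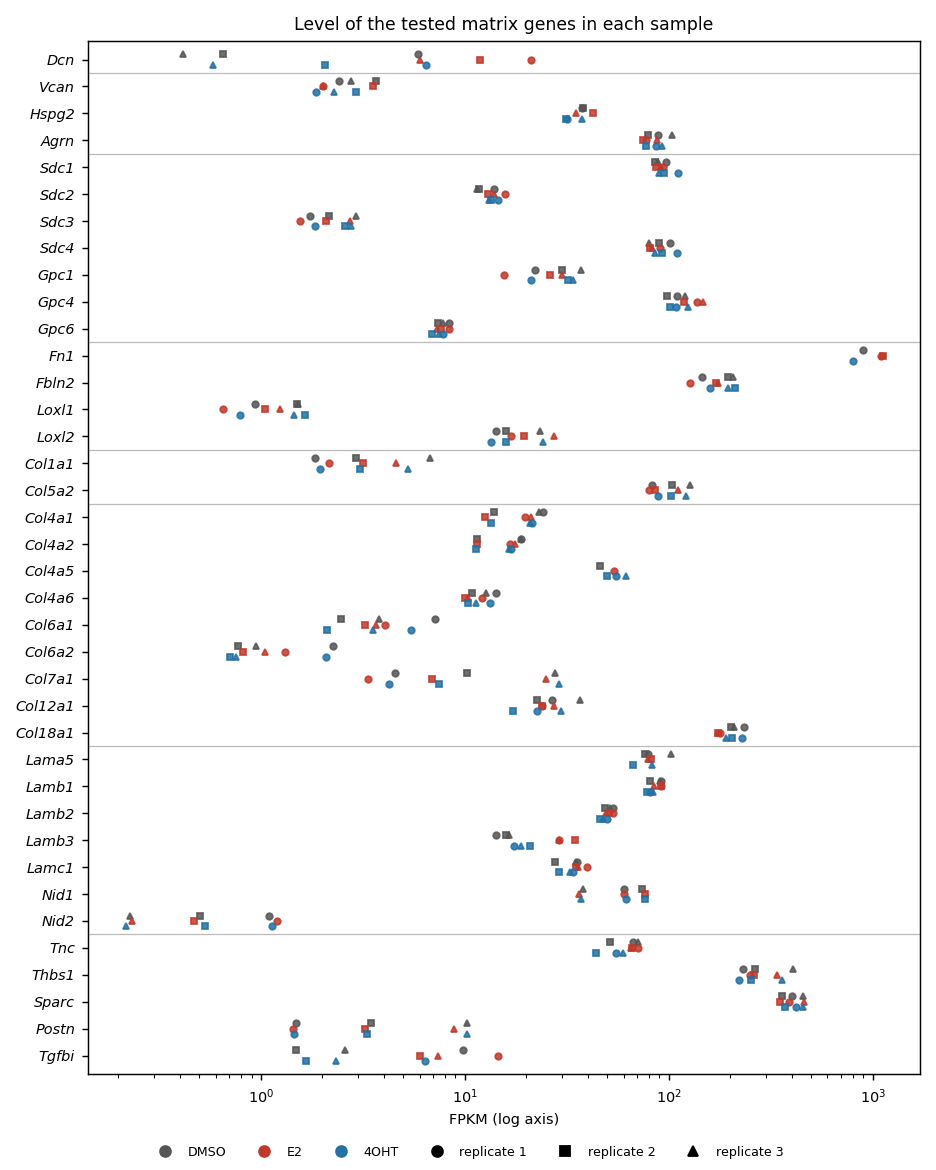
FPKM (log axis) of the 38 tested matrix genes, grouped by class with grey lines. Each point is 1 sample, colored by treatment and shaped by replicate number. Zeros set apart are not drawn. Most genes have overlapping treatments, while *Dcn* spans 0.416 to 21.0 and *Postn* and *Col7a1* separate by replicate number.

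Within a class, levels were far from uniform. Basement membrane genes were well represented: *Lamb1*, the laminin beta 1 chain, ranged from 78.6 to 91.4 FPKM, *Agrn* from 74.9 to 103, and *Nid1* from 36.4 to 76.8. The fibrillar class was represented almost entirely by *Col5a2*, at 79.7 to 127, since *Col1a1* lay between 1.84 and 6.73 and *Col1a2*, *Col3a1* and *Col5a1* were among the 13 genes under 0.2. The elastic fibre genes *Eln*, *Fbln1*, *Fbln5* and *Fbn2* and the crosslinking enzyme gene *Lox* were also under 0.2, whereas its relative *Loxl2* lay between 13.4 and 27.4. Of the small leucine-rich proteoglycans, *Lum*, *Fmod* and *Ogn* were under 0.2 in every sample, and *Bgn* lay between 0.425 and 1.52, so *Dcn* alone of the 5 was tested.

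Some neighbouring genes of the set stood far apart in level. *Col5a2* (chr1:45374321-45503282, minus strand, GRCm38) had a mean of 100.2 FPKM and *Col3a1*, 24614 bases away, one of 0.00354. *Gpc4* and *Gpc3* lie 107173 bases apart on chromosome X with means of 118 and 0.0126. *Dcn* (chr10:97479609-97518143, plus strand) and *Lum* lie 46984 bases apart with means of 6.12 and 0.00286. *Col6a2* and *Col6a1*, 85161 bases apart on the minus strand of chromosome 10, were closer, with means of 1.191 and 3.945. The type IV collagen genes, arranged head to head, were also closer in level. *Col4a1* and *Col4a2* overlap by 22 bases on opposite strands, had means of 18.9 and 15.5, and were both lowest in the 3 samples of replicate 2. *Col4a6* and *Col4a5*, 1308 bases apart on chromosome X, had means of 11.7 and 53.3.

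The first comparison asked which matrix genes E2 changed against DMSO. A single gene, *Lamb3*, passed the test without regard to replicate numbers (limma on log2(FPKM + 1), Benjamini-Hochberg adjusted p under 0.05). This was 1 of 38 tested genes, beside 0.583% of all 11319 tested rows (0.548% higher and 0.0353% lower), and 5 of the 38 had an unadjusted p under 0.05, beside 1238 of the 11319 rows. Samples of the same replicate number deviated together from their treatment means, and in the fit with replicate number as a block 14 of 36 testable genes passed, 6 higher and 8 lower. All tested rows gave 18.4% in that fit, 12.0% higher and 6.42% lower. The higher genes were *Dcn*, *Tgfbi*, *Lamb3*, *Gpc4*, *Loxl2* and *Sdc2*, and the lower ones were *Col7a1*, *Gpc1*, *Col18a1*, *Fbln2*, *Col4a6*, *Col4a1*, *Col5a2* and *Agrn*. The median log2 fold change of the 38 genes was -0.06, beside -0.0021 for all rows. For genes with no value set apart, both fits give the same fold change and differ in its error. Log2 fold changes are on the FPKM + 1 scale and understate the change of weakly expressed genes.

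**Figure D2:**
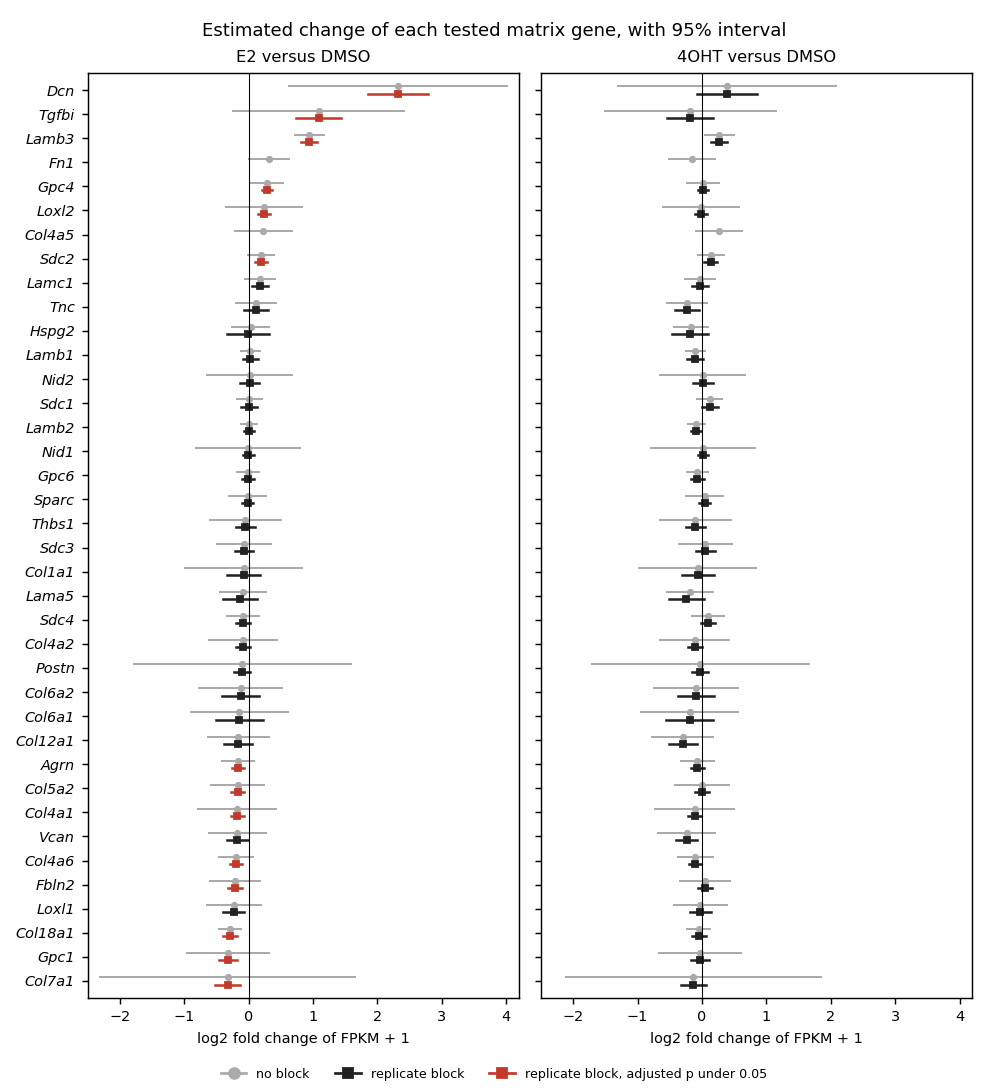
Estimated log2 fold change of FPKM + 1 with its 95% interval for each tested matrix gene, E2 versus DMSO on the left and 4OHT versus DMSO on the right. Grey circles are the fit without a block, squares the fit with the replicate block, red where the adjusted p was under 0.05. The 14 red squares lie on the left panel, from 2.32 for *Dcn* to -0.33 for *Col7a1*.

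*Dcn* had the largest change. Its FPKM in replicates 1, 2 and 3 was 5.87, 0.652 and 0.416 in DMSO, 21.0, 11.9 and 6.05 in E2, and 6.47, 2.07 and 0.581 in 4OHT. Every E2 sample lay above every DMSO sample, but the lowest E2 value lay under the 4OHT value of replicate 1, and replicate 1 was highest within each treatment. Within replicates, E2 was 3.58, 18.3 and 14.5 times DMSO, with both larger ratios resting on DMSO values under 1 FPKM. On the log2 scale this was 2.32 ± 0.74 (SE, adjusted p = 0.296), and with the block 2.32 ± 0.20 (adjusted p = 0.000305). The call with the block was kept when the 3 samples of any 1 replicate number were left out, with adjusted p between 0.000528 and 0.0114.

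The study's own RNAseq analysis lists *Dcn* among the genes most raised by E2. It was also measured in the study by qPCR, whose values were not analysed here. The primers are shown because they fix which part of the transcript that assay reads. By match to the GENCODE vM21 annotation of GRCm38, the forward primer lies in exon 7 of 8 (chr10:97513645-97513663) and the reverse primer spans the junction of exons 7 and 8 (from 97513726 to 97517470, on the minus strand). Both lie in coding sequence and bound a product of 103 bases of a transcript of 1758 bases. The sequences are printed in lower case, 5′ to 3′, with no base marked.
Dcn forward: ctggccaatgttcctcatc
Dcn reverse: ggtagacgacctggatatactt

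*Lamb3* encodes the beta 3 chain of the laminin that anchors epithelia to their basement membrane. Its FPKM was 14.2, 16.0 and 16.5 in DMSO, 28.9, 34.9 and 28.9 in E2, and 17.3, 20.9 and 18.8 in 4OHT. The 3 treatments did not overlap, with DMSO lowest, 4OHT between and E2 highest. E2 exceeded DMSO by a log2 fold change of 0.94 ± 0.097 (SE, adjusted p = 0.00749), and the mean rose from 15.6 ± 1.20 to 30.9 ± 3.43 (SD, n = 3 each). With the block the adjusted p was 5.24e-05. The call held without any 1 of the 9 samples, but without the whole of replicate 2 or 3 the adjusted p in the fit without a block was 0.187 and 0.318. *Lama3*, which encodes the alpha 3 chain of the same trimer, was not tested and lay between 0.141 and 0.226 FPKM.

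*Tgfbi*, which encodes a secreted protein that links collagens to integrins, measured 9.79, 1.49 and 2.59 FPKM in DMSO, 14.5, 6.06 and 7.42 in E2, and 6.35, 1.67 and 2.34 in 4OHT. Treatments overlapped because replicate 1 was far above the others, yet E2 was highest within each replicate, at 1.49, 4.07 and 2.86 times DMSO. Its log2 fold change was 1.09 ± 0.58 (SE, adjusted p = 0.552), and with the block its SE was 0.15 and the adjusted p 0.00278. Without replicate 3 the blocked adjusted p was 0.0536.

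The 250 bases before the RefSeq transcription start (GRCm38.p6, plus strand) are shown for *Lamb3* and *Tgfbi*, the genes with the largest fold changes after *Dcn*, which has no entry. The *Lamb3* window is chr1:193301744-193301993, before 1 of its 2 listed starts, and the *Tgfbi* window is chr13:56609336-56609585. Capitals mark any match on either strand to 4 motifs, the full estrogen response element palindrome, the single arm GGTCA of it, the AP-1 site TGANTCA and the GC box GGGCGG.
Lamb3: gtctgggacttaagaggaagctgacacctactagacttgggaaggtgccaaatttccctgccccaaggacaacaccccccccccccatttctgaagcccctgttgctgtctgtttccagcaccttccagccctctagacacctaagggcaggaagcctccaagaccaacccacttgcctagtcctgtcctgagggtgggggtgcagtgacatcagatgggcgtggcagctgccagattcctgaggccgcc
Tgfbi: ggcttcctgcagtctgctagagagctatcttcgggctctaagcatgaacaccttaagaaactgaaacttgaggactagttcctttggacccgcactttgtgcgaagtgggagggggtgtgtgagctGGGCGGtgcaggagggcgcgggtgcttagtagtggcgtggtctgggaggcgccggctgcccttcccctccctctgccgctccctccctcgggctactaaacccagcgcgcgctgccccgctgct

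The *Lamb3* window held none of the 4 motifs and the *Tgfbi* window held 1 GC box. Windows of this length were found for 25 of the tested matrix genes, 31 windows in all. None held the full palindrome, which 0.0639% of all 32851 windows in the table hold. The single arm, which also lies inside the palindrome, was in 7 of the 31 windows (35.2% of all windows), the AP-1 site in 1 (6.75%), and the GC box in 22 (32.7%). The 31 windows belong to genes that passed the expression filter, while the percentages cover all 32851 windows whatever the level of their gene, so the sets are unlike. A match is a description of the letters only, and its absence says nothing of sites elsewhere.

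Among cell surface proteoglycans, *Gpc4*, a membrane-anchored heparan sulfate carrier, was the most abundant. It measured 110.3, 98.4 and 121 FPKM in DMSO, 137, 119 and 147 in E2, and 108, 101 and 124 in 4OHT. The 3 replicates kept their order under each treatment and E2 was highest in each, at 1.24, 1.21 and 1.22 times DMSO, although the groups overlapped. For E2 over DMSO the log2 fold change was 0.29 with an SE of 0.11 without the block (adjusted p = 0.383) and 0.034 with it (adjusted p = 0.00129). *Loxl2*, an enzyme that crosslinks collagen and elastin, measured 14.2, 15.9 and 23.3 in DMSO, 16.8, 19.5 and 27.4 in E2, and 13.4, 15.9 and 24.2 in 4OHT. Replicate 3 was highest in each treatment and the groups overlapped, while within replicates E2 was 1.18, 1.23 and 1.18 times DMSO. The log2 fold change was 0.24, with an adjusted p of 0.752 without and 0.00579 with the block.

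*Sdc2*, a syndecan that bridges matrix and cytoskeleton, measured 13.8, 11.8 and 11.5 FPKM in DMSO and 15.8, 13.0 and 13.9 in E2. It was the smallest of the 6 higher genes, at a log2 fold change of 0.19 with an adjusted p of 0.504 without and 0.0204 with the block. Its 4OHT values, 14.5, 13.4 and 13.1, lay among those of the other treatments but were 1.05, 1.14 and 1.14 times DMSO within replicates. For 4OHT over DMSO the log2 fold change was 0.14 (blocked adjusted p = 0.321), and for E2 over 4OHT it was 0.05 (blocked adjusted p = 0.405). *Gpc1*, a second glypican, moved the other way from *Gpc4*. It measured 22.0, 29.9 and 37.1 in DMSO, 15.6, 26.1 and 29.9 in E2, and 21.1, 32.1 and 34.0 in 4OHT, so that E2 was lowest in each replicate while the groups overlapped. The log2 fold change was -0.32, with an adjusted p of 0.702 without and 0.00903 with the block.

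**Figure D3:**
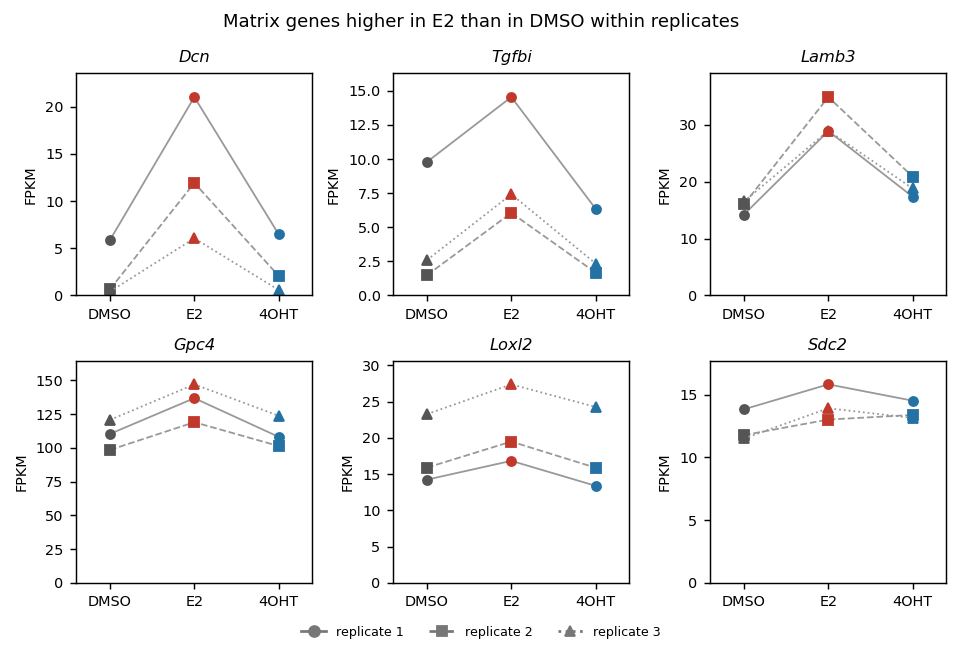
FPKM by treatment of the 6 matrix genes that rose under E2 in the blocked fit, with lines joining samples of the same replicate number. In each panel the 3 lines rise from DMSO to E2. For *Lamb3* the E2 values of 28.9 to 34.9 lie above all others.

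Collagens made up 5 of the 8 lower genes. With the block these were 1 of 2 fibrillar collagens and 4 of 8 basement membrane and other collagens, beside 6.42% of all rows. *Col18a1*, a basement membrane collagen that carries heparan sulfate, measured 233, 202 and 209 FPKM in DMSO, 177, 174 and 174 in E2, and 228, 203 and 191 in 4OHT. All E2 samples lay under all DMSO and all 4OHT samples, and the mean fell from 215 ± 15.9 to 175 ± 1.98 (SD, n = 3). The log2 fold change was -0.29, with an SE of 0.077 and an adjusted p of 0.214 without the block and an SE of 0.048 and an adjusted p of 0.00579 with it. The blocked call was kept without any 1 replicate number, with adjusted p between 0.0193 and 0.0487.

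*Col7a1*, the collagen of anchoring fibrils, measured 4.55, 10.2 and 27.6 FPKM in DMSO, 3.35, 6.90 and 25.1 in E2, and 4.27, 7.49 and 29.0 in 4OHT. Replicate 3 was several times the others in each treatment, and E2 was lowest within each replicate. E2 differed from DMSO by -0.33 on the log2 scale, with an adjusted p of 0.914 without and 0.0293 with the block. *Col4a1* measured 24.0, 14.0 and 23.1 in DMSO, 19.7, 12.6 and 21.2 in E2, and 21.5, 13.4 and 20.9 in 4OHT. E2 was under DMSO in each replicate, by -0.18 on the log2 scale with a blocked adjusted p of 0.0258. *Col4a6*, another type IV chain, measured 14.2, 10.9 and 12.7 in DMSO, 12.2, 10.0 and 10.3 in E2, and 13.2, 10.3 and 11.4 in 4OHT, a log2 fold change of -0.20 for E2 with a blocked adjusted p of 0.0150. Treatments overlapped for both type IV genes.

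*Col5a2*, the abundant fibrillar chain, measured 82.9, 103 and 127 FPKM in DMSO, 79.7, 85.8 and 111 in E2, and 89.0, 102 and 121 in 4OHT. E2 was lowest in each replicate, and the log2 fold change was -0.17 with a blocked adjusted p of 0.0385. *Fbln2* measured 145, 195 and 207 in DMSO, 128, 170.3 and 174 in E2, and 159.7, 211 and 194 in 4OHT. Its log2 fold change was -0.21 with a blocked adjusted p of 0.0208. *Agrn* measured 88.5, 78.9 and 103 in DMSO, 77.3, 74.9 and 87.7 in E2, and 86.9, 77.3 and 92.5 in 4OHT. Its log2 fold change was -0.17 with a blocked adjusted p of 0.0308, and as for the other 2 genes the treatments overlapped. Without the block the adjusted p of the 7 lower genes other than *Col18a1* lay between 0.595 and 0.914.

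**Figure D4:**
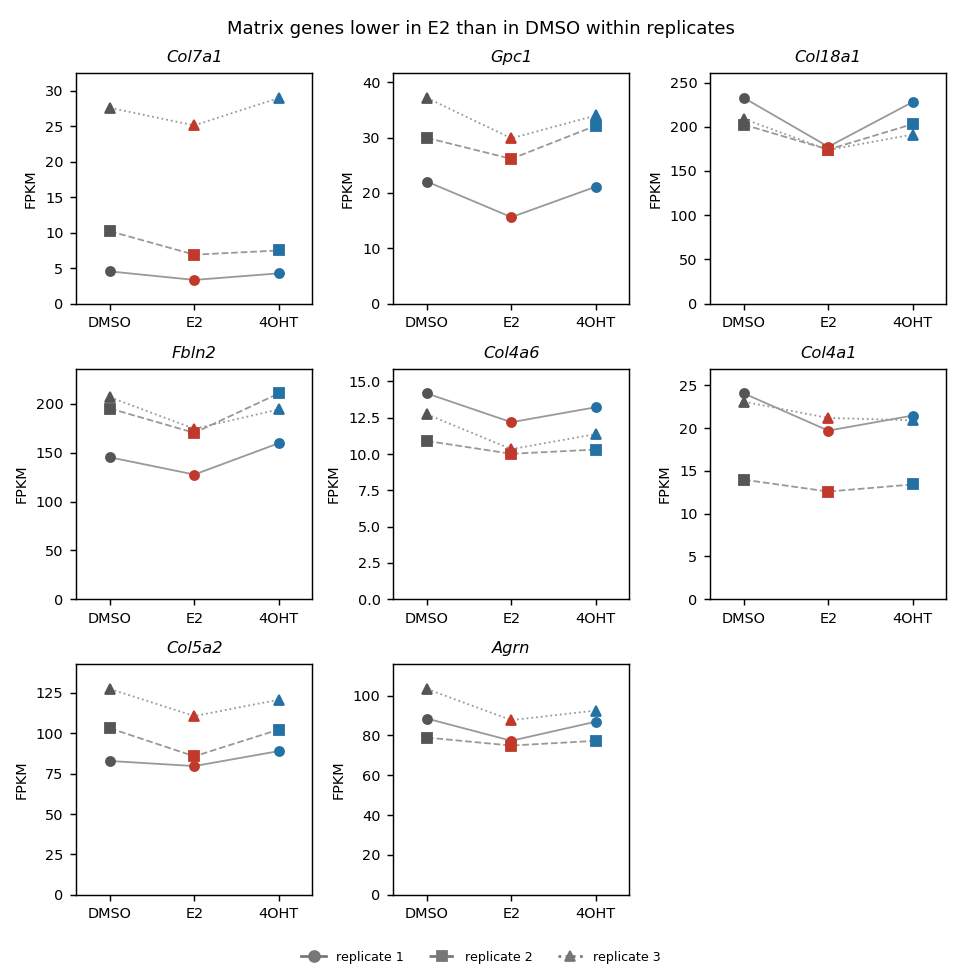
FPKM by treatment of the 8 matrix genes that fell under E2 in the blocked fit, with lines joining samples of the same replicate number. In each panel the 3 lines fall from DMSO to E2. The E2 values of *Col18a1* meet at 174 to 177.

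How far these calls depended on single replicate numbers differed by gene. Of the 14 blocked calls, 5 (*Dcn*, *Lamb3*, *Gpc4*, *Loxl2* and *Col18a1*) held in each of the 3 fits that left out 1 replicate number. *Col7a1*, *Col4a1* and *Fbln2* held in none of them, and the other 6 in some. In counts of samples, 2 of the 34 tested genes with all 9 values had every E2 sample above every DMSO sample (*Dcn* and *Lamb3*) and 1 (*Col18a1*) had every E2 sample below, where all rows gave 9.16% and 6.11%. E2 was above DMSO in all 3 replicates for 7 of the 34 and below for 12, beside 28.3% and 24.5% of all rows.

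The 4 genes with zeros set apart give less. *Fn1*, whose product is the cell-adhesive glycoprotein fibronectin, was listed at 0 in replicates 2 and 3 of DMSO and of 4OHT and in replicate 3 of E2. The remaining values were 893 FPKM in DMSO, 1103 and 1117 in E2 and 800.3 in 4OHT. Its log2 fold change of 0.31 for E2 over DMSO (adjusted p = 0.446) rests on these 3 samples, the spread of a lone sample being assumed like that of the others, and the blocked contrast was not fitted. *Hspg2* measured 37.6 and 38.0 in DMSO, 42.4 and 35.3 in E2, and 31.8, 31.3 and 37.6 in 4OHT, with E2 replicate 1 and DMSO replicate 3 missing. Its log2 fold change of E2 over DMSO was 0.03 (limma adjusted p = 0.942) without the block and -0.0059 (limma adjusted p = 0.981) with it.

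*Col4a5* had 1 DMSO value of 45.8 FPKM, 1 E2 value of 53.7 and 4OHT values of 55.3, 50.0 and 61.5. Its E2 and DMSO values are 1 sample each, from different replicate numbers, so the log2 fold change of 0.23 rests on a spread taken from the 4OHT samples and the trend over all genes, and no p is given for it. *Lama5*, a laminin alpha chain common to epithelial and vascular basement membranes, measured 78.9, 76.1 and 102 in DMSO, 81.7 and 78.8 in E2 replicates 2 and 3, and 66.5 and 83.0 in 4OHT replicates 2 and 3. Its log2 fold change was -0.08 (limma adjusted p = 0.868) without the block and -0.13 (limma adjusted p = 0.435) with it.

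The other tested genes did not pass in either fit for E2 against DMSO. They included *Sparc*, with 403, 358 and 456 FPKM in DMSO and 390.3, 353 and 462 in E2, *Lamb1*, and the syndecans *Sdc1* and *Sdc4*. Among untested genes, *Lama4*, another laminin alpha chain, lay between 0.337 and 0.626 in DMSO and between 0.649 and 1.38 in E2, without overlap but near the limit of 1 FPKM. It was singled out after its values were seen.

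The second comparison, 4OHT with DMSO, used the same DMSO samples. No matrix gene passed, 0 of 38 without the block and 0 of 36 with it, beside 0% and 0.0620% of all tested rows (0.0531% higher and 0.00886% lower with the block), and an unadjusted p under 0.05 (limma) was found for 1 of the 38 and, with the block, 9 of the 36. Over all rows, 294 had an unadjusted p under 0.05 without the block and 1547 with it. Without the block that gene was *Lamb3*, 0.27 higher on the log2 scale with an adjusted p of 1.00 without the block and 0.189 with it, and 1.22, 1.30 and 1.14 times DMSO within replicates. It was the only 1 of 34 genes with all values whose 4OHT samples lay entirely above DMSO, and none lay entirely below, beside 4.36% and 3.53% of all rows. *Dcn* differed by 0.39 (95% interval -0.08 to 0.86 with the block) and *Tgfbi* by -0.19 (-0.54 to 0.17), intervals that still include differences larger than those called for several genes under E2. Fibronectin was 800.3 FPKM in the single 4OHT sample and 893 in the single DMSO sample, both of replicate 1. 4OHT was above DMSO in all 3 replicates for 6 of the 34 genes and below for 14, beside 30.5% and 15.7% of all rows. The median log2 fold change was -0.06, beside 0.02 over all rows.

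The third comparison set E2 against 4OHT, with the same E2 and 4OHT samples as above. *Lamb3* alone passed without the block, at a log2 fold change of 0.67 ± 0.097 (SE, adjusted p = 0.0430), beside 0.327% of all rows (0.309% higher and 0.0177% lower). That call was kept without DMSO replicate 1 and lost without each of the other 8 samples, with adjusted p up to 0.177, while with the block it was 0.000321. With the block 12 of 36 genes passed, 7 higher and 5 lower, beside 21.5% of all rows (10.6% higher and 10.9% lower).

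The higher genes were *Dcn* (1.93), *Tgfbi* (1.27), *Lamb3*, *Gpc4* (0.27) and *Loxl2* (0.25) with *Tnc* (0.35) and *Lamc1* (0.20). *Tnc*, the gene of tenascin C, measured 66.6, 51.5 and 70.3 FPKM in DMSO, 70.9, 66.1 and 65.1 in E2, and 55.3, 44.2 and 59.7 in 4OHT. All E2 samples lay above all 4OHT samples, with DMSO overlapping both, and the blocked adjusted p was 0.0231. *Lamc1*, the common laminin gamma 1 chain, measured 39.7, 35.2 and 35.7 in E2 and 33.7, 29.1 and 32.8 in 4OHT, also without overlap, with a blocked adjusted p of 0.0340.

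The lower genes were *Gpc1* (-0.29), *Fbln2* (-0.26), *Col18a1* (-0.24), *Col5a2* (-0.18) and *Sdc4* (-0.18). *Sdc4*, a syndecan of focal adhesions, measured 101, 89.6 and 80.1 FPKM in DMSO, 90.7, 80.7 and 82.7 in E2, and 109.9, 93.0 and 85.7 in 4OHT, with overlap and a blocked adjusted p of 0.0389. Leaving out 1 replicate number at a time, *Dcn*, *Gpc4*, *Lamb3*, *Loxl2* and *Tgfbi* held in all 3 blocked fits. *Lamc1* and *Col5a2* held in none of them, and the other 5 genes in 1 or 2. *Fn1* differed by 0.47 (adjusted p = 0.343) on 3 samples. Groups did not overlap for 4 higher genes and 1 lower gene of 34, beside 8.41% and 10.0% of all rows. The median over the 38 genes was 0.01, beside -0.01 over all rows.

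A number of matrix genes separated by replicate number rather than by treatment. The labels do not say what a replicate number stands for. Replicate 3 lay above all 6 other samples for 9 of the 34 genes with all values (6.42% of all rows) and below for 2 (4.68%). Replicate 1 lay above for 4 (10.8%) and below for 8 (10.2%), and replicate 2 above for 2 (4.14%) and below for 4 (5.02%). *Postn*, a matricellular partner of collagen, measured 1.49, 1.44 and 1.45 FPKM in the DMSO, E2 and 4OHT samples of replicate 1, 3.46, 3.24 and 3.31 in replicate 2, and 10.3, 8.85 and 10.3 in replicate 3. Replicate 3 was 6.73 times replicate 1 on average, and 6.71 times for *Col7a1*. *Col1a1* had means of 1.98, 3.06 and 5.52 by replicate number, and *Thbs1* of 234, 259.9 and 367.

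Other genes ran the opposite way. *Nid2* had means of 1.15, 0.501 and 0.227 FPKM in replicates 1, 2 and 3 and passed the filter through replicate 1 alone. Its relative *Nid1*, a laminin-collagen linker like *Nid2*, was highest in replicate 2 with a mean of 75.8 and lowest in replicate 3 with 37.2. *Dcn* was also ordered by replicate, with means of 11.1, 4.88 and 2.35. The smooth muscle gene *Acta2* was highest in replicate 3 of each treatment (1414, 1724 and 1517 FPKM), as was *Cnn1* (36.5, 31.5 and 35.1). Of the other smooth muscle markers, *Des* was lowest in replicate 3 of each treatment (0.0325, 0.0101 and 0.0119) and *Myh11* lowest there under E2 (0.259) but highest under DMSO (0.305) and 4OHT (0.274). Both stayed under 1 FPKM in every sample, so their order by replicate rests on little signal. The line is monoclonal, and whether these markers stand for a cell type or for a state of the same cells was not tested. Genes in the plot by replicate number were chosen after their values were seen.

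**Figure D5:**
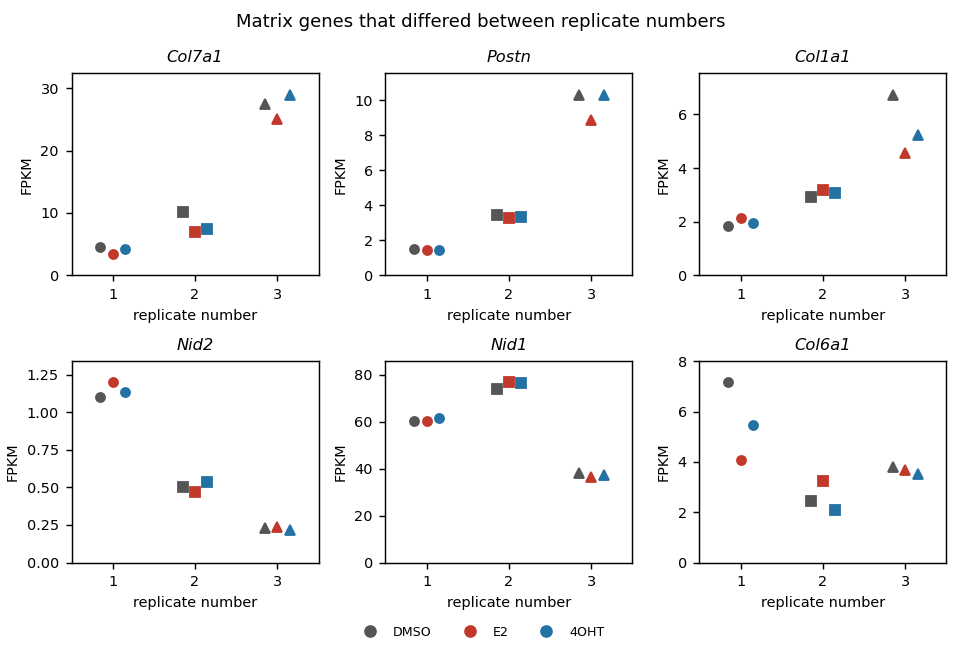
FPKM of 6 matrix genes by replicate number, each point 1 sample colored by treatment. For *Col7a1*, *Postn* and *Col1a1* replicate 3 lies above the other replicates under all treatments, and for *Nid2* it lies below them, with means of 0.227 against 1.15 in replicate 1.

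Genes that build, modify or bind this matrix were counted in 4 further lists. Outside the set, 22 rows of collagens and structural genes were tested, with *Spon1* in several of them. None passed for E2 against DMSO without the block, and 10 rose and 2 fell with it. In that blocked fit 12.0% of all rows were higher and 6.42% lower. The largest were *Col4a3* (0.76), *Spp1* (0.69) and *Col4a4* (0.65). *Col4a3* and *Col4a4* encode the type IV chains of specialised basement membranes, and both moved opposite to *Col4a1* and *Col4a6*. *Col4a3* measured 23.9, 13.6 and 27.7 FPKM in DMSO, 43.1, 27.4 and 39.7 in E2, and 24.3, 13.7 and 24.2 in 4OHT. Each E2 value lay above the DMSO value of its replicate, and the blocked adjusted p was 0.000552.

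Of 19 tested genes for collagen making and secretion, 4 rose and 2 fell with the block, beside 12.0% and 6.42% of all rows. *P4ha2*, a collagen prolyl hydroxylase, measured 23.9, 15.7 and 16.5 FPKM in DMSO, 41.5, 28.4 and 29.1 in E2, and 27.4, 18.8 and 20.1 in 4OHT. Its E2 samples lay above all others, with a log2 fold change over DMSO of 0.79 and a blocked adjusted p of 1.41e-05. *Pcolce2*, an enhancer of procollagen processing, fell by 0.52 and the crosslinking enzyme gene *Loxl4* rose by 0.48. Of 23 genes for proteoglycan sugar chains, 3 rose and 2 fell with the block (12.0% and 6.42% of all rows), led by the chondroitin sulfotransferase gene *Chst11* (0.58). Of 18 matrix receptors tested without the block, *Itga3* had too few paired values to be fitted with it. With the block 6 rose and none fell (12.0% and 6.42% of all rows). *Cd47*, a thrombospondin receptor, passed also without the block (0.34, adjusted p = 0.0270). It measured 34.6, 34.6 and 34.0 in DMSO, 44.8, 43.8 and 42.5 in E2, and 40.0, 38.5 and 37.1 in 4OHT, with no overlap between treatments. No gene of the 4 lists passed for 4OHT against DMSO in either fit.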

How the data were processed

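RNAseq of 9 samples was analysed. Per the labels and methods, the authors aligned trimmed reads with TopHat2 2.0.8b (mm10) and computed expression with Cuffdiff 2.1.1. The FPKM they deposited, 1 value per gene row and sample, were used as given. Whether a further scaling between libraries entered them is not given in the sources used here. The read counts behind single values are not in the files, so no counting interval was given, and tests that need counts were not run. Treatment and replicate number came from the labels.

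All 9 samples entered 1 limma 3.58.1 fit (R 4.3.3, Python 3.11.15) of log2(FPKM + 1) on treatment, with limma's variance trend, over rows with at least 1 FPKM in at least 3 samples. An exact 0 in a gene with a nonzero median of at least 5 FPKM was set missing. Tests were two-sided with Benjamini-Hochberg adjustment over all tested rows of a contrast and a threshold of 0.05. The script was tested on simulated data with 200 changed genes.

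The replicate numbers of the labels were used as a block in a further fit. Deviations of same-numbered samples from their treatment means correlated at 0.454 to 0.801 over 11122 genes in every pair, so the numbers pair the samples, and blocked values are printed beside the results they change. A gene with too few paired values was not fitted with the block.

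The members and lists were chosen with earlier results of these data known. Full values are given for *Dcn*, members past the threshold in either fit (up to 20), members with zeros set apart, and the most abundant tested member of each class, with sequences for those with the largest changes and up to 3 genes of each further list. Alternatives were log2(FPKM + 0.1), no filter, zeros kept as values with and without the block, upper-quartile scaling, 6-sample fits, no trend, a threshold of 0.01, and leaving out each sample or replicate number. Coordinates came from GENCODE vM21 (GRCm38, the assembly mm10 names) and promoters from RefSeq (GRCm38.p6). Proteins, Western blots, qPCR and growth data were not analysed here.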

Additional observations from a re-analysis of the deposited data

How the results depend on the processing

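Without the block, the count of matrix genes past the threshold for E2 against DMSO ranged from 0 to 3 when a sample or replicate number was left out, and that for E2 against 4OHT from 0 to 1. For the other matrix genes these ranges were 0 to 3 and 0 to 1. The median log2 fold change ranged from -0.090 to 0.030 for E2 against DMSO, from -0.11 to 0.011 for 4OHT against DMSO and from -0.049 to 0.060 for E2 against 4OHT. The replicate block gave 14 matrix and 29 other matrix genes for E2 against DMSO and 12 and 32 for E2 against 4OHT. With zeros kept as values and the block, these counts were 12 and 28, and 9 and 29. With the block and without replicate 1, 2 or 3 in any condition, E2 against DMSO gave 7, 10 and 5 matrix and 25, 19 and 18 other genes, and E2 against 4OHT gave 5, 7 and 11 matrix and 17, 17 and 19 other genes, with a median of -0.032 without replicate 2. The E2 against 4OHT count for matrix genes was 0 with no filter, with zeros kept, with 6-sample fits and at a threshold of 0.01. The count of other matrix genes for E2 against DMSO was 0 with 6-sample fits and at 0.01. Over all rows, the block raised the calls from 66 to 2081, from 0 to 7 and from 37 to 2427 in the 3 contrasts. The paired fit changed no other call than those given. The cause of these shifts was not tested.

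Single genes changed sign as follows when a sample or replicate number was left out. For E2 against DMSO the log2 fold change ranged from -1.05 to 0.29 for *Col7a1*, from -0.42 to 0.041 for *Col4a1*, from -0.097 to 0.16 for *Hspg2* (-0.0059 with the block) and from -0.19 to 0.075 for *Lama5*. For 4OHT against DMSO it ranged from -0.20 to 1.11 for *Dcn* and from -0.63 to 0.43 for *Tgfbi*. When only whole replicate numbers were left out, E2 against DMSO kept its sign for *Col7a1* (-0.43 to -0.24) and *Col4a1* (-0.21 to -0.13). In the same fits 4OHT against DMSO kept its sign for *Dcn* (0.14 to 0.53) and *Tgfbi* (-0.33 to -0.0015). *Hspg2* and *Lama5* still changed sign in them. With zeros kept as values, *Fn1* differed by 3.48 between E2 and DMSO (adjusted p = 0.775). The read counts behind single values are not in the files used here, which limits most of all values under 1 FPKM.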
